A study of Homo sapiens with 35 samples.

Results

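The histone genes were followed in the human neuroblastoma line BE(2)-C, which has amplified MYCN, under all-trans retinoic acid, valproic acid and their combination. A probe set was taken as a member when it was annotated to exactly 1 gene and the symbol began with H1-, H2A, H2B, H3-, H3C, H4-, H4C or MACROH2A. This gave 79 of 19359 probe sets tested, covering 64 genes. Of these, 59 probe sets of 55 genes measure replication-dependent histones, which lie in clusters on chromosome 6 (52 probe sets) and chromosome 1 (7 probe sets). The other 20 probe sets measure 9 genes of histone variants, with 1 for linker histone H1-10, 14 of the H2A type and 5 of the H3 type. The replication-dependent probe sets divide into 6 for H1, 13 for H2A, 16 for H2B, 11 for H3 and 13 for H4.

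The series was made for a signature of differentiation in neuroblastoma. The groups were ATRA (all-trans retinoic acid, 5 uM), VPA (valproic acid, an inhibitor of histone deacetylases, 1 mM), ATRA plus VPA at the same doses, and DMSO, the vehicle, each collected at 6 h, 24 h and 72 h. Every group held 3 arrays except DMSO at 72 h, which held 2. All 35 arrays come from 1 cell line, and the labels do not say whether replicates were separate cultures on separate days, so p-values measure the spread between these samples and nothing wider. Noradrenergic neuroblastoma genes were measured for 13 of 14 list members, of which 12 lay above the median level of all probe sets. No blood, endothelial or Schwann cell marker did, while 1 of 4 epithelial and 2 of 5 mesenchymal markers did. DMSO 24 h replicate 1 was the least typical array, with residuals of SD 0.243, while the other arrays had 0.0872 to 0.199, and the results it decides are given without it.

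Histones package DNA into nucleosomes. The replication-dependent genes are switched on in S phase to supply new chromatin, and their mRNAs normally end in a stem-loop rather than a poly(A) tail. Variant histones such as H2AZ and H3.3 are made throughout the cell cycle from ordinary polyadenylated mRNAs, and dedicated chaperones place them at particular sites. The cRNA on these arrays was primed with oligo-dT, so a replication-dependent gene is seen mainly where it also makes a polyadenylated mRNA. Its value here is not the gene's total mRNA, and the same limit is kept for H2AX, which is classed here with the variants. Histone genes are also close copies of each other. On this array type the suffix x marks a probe set whose probes match other genes in part and the suffix s one whose probes are shared by several transcripts. Among the members 14 carried x and 17 carried s, with 11 and 7 of them in replication-dependent genes. Probe sets of one histone type may therefore share signal, and they are not independent observations. In bulk cells, fewer cells making an mRNA and less mRNA per cell cannot be told apart.

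The promoters of the genes the results turn on are shown because most replication-dependent H2A and H2B genes hold an octamer that the other genes of the set mostly lack. Each stretch is the 250 bases before the RefSeq gene start (GRCh38.p14, minus strand in all 4 genes), printed 5′ to 3′, with capitals for matches on either strand to the octamer ATTTGCAT, the CCAAT box (CCAAT) and the TATA box (TATAAA). H2BC21 lies upstream at chr1:149886683-149886932, H2BC12 at chr6:27146859-27147108, H2AC18 at chr1:149842751-149843000 and H2AX at chr11:119095466-119095715.
H2BC21 promoter: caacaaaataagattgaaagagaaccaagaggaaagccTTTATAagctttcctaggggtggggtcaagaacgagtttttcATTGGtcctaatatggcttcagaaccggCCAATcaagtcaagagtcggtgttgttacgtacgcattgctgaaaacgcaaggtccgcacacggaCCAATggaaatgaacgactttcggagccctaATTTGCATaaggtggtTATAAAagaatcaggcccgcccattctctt
H2BC12 promoter: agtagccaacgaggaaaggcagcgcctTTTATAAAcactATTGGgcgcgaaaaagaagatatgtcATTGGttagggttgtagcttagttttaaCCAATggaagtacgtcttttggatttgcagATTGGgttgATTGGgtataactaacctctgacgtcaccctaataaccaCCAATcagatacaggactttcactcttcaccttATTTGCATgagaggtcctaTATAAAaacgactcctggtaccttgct
H2AC18 promoter: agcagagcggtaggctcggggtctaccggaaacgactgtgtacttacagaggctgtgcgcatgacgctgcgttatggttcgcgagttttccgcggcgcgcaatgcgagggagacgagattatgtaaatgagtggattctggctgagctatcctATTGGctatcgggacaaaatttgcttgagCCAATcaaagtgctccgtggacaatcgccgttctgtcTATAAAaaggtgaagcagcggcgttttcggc
H2AX promoter: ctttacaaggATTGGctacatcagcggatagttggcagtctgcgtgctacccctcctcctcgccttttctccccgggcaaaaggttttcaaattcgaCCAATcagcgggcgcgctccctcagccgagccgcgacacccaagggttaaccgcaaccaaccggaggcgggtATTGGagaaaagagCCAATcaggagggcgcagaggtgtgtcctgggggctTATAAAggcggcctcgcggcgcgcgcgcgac
The octamer begins 46 bases before the start in both H2BC21 and H2BC12, and there is no match to it in the H2AC18 and H2AX stretches. In H2BC12 the letters TTTATAAA hold 1 pair of overlapping TATA matches, one on each strand. A window of 300 bases (250 before the start and 50 after) was available for 60 of the 64 genes. The octamer was found in 12 of 15 replication-dependent H2B genes (80%), 7 of 11 H2A genes (63.6%), 1 of 9 H3 genes (11.1%), 0 of 6 H1 genes, 0 of 10 H4 genes and 1 of 9 variant genes. Over 27305 genes the share was 2.19%. The CCAAT box was present in 86.3% of the 51 replication-dependent genes, against 39.7% of all genes, and the TATA box in 66.7%, against 14%. The variants had similar shares, 7 of 9 genes (77.8%) for the CCAAT box and 5 of 9 (55.6%) for the TATA box. These are matches of letters, and whether a factor binds them in BE(2)-C cells was not tested.

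Most replication-dependent probe sets gave little signal, and most variant probe sets gave much. Intensities are on the linear scale of the deposited values, which carry no detection calls; the lower quartiles of the arrays were 20.8 to 23.6. Brightness depends on the probes as well as on the mRNA, so it is used here only to show how far a probe set stands above that floor. Averaged over the 35 arrays, the 59 replication-dependent probe sets ran from 14.98 to 2301 with a median of 24.4, and the 20 variant probe sets from 19.5 to 12378 with a median of 1858. Only 14 of the 59 replication-dependent probe sets lay above 65.6, the median of all tested probe sets, against 17 of the 20 variant probe sets. The 45 dimmer replication-dependent ones had a median of 22.1 and are not shown to be above background. The 31 brighter members held 23 of the 35 members that changed in at least 1 of the 9 comparisons with DMSO. The other 12 changed members were among the 48 dimmer ones. The share of changed probe sets among all those of similar level is not given here.

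**Figure D1:**
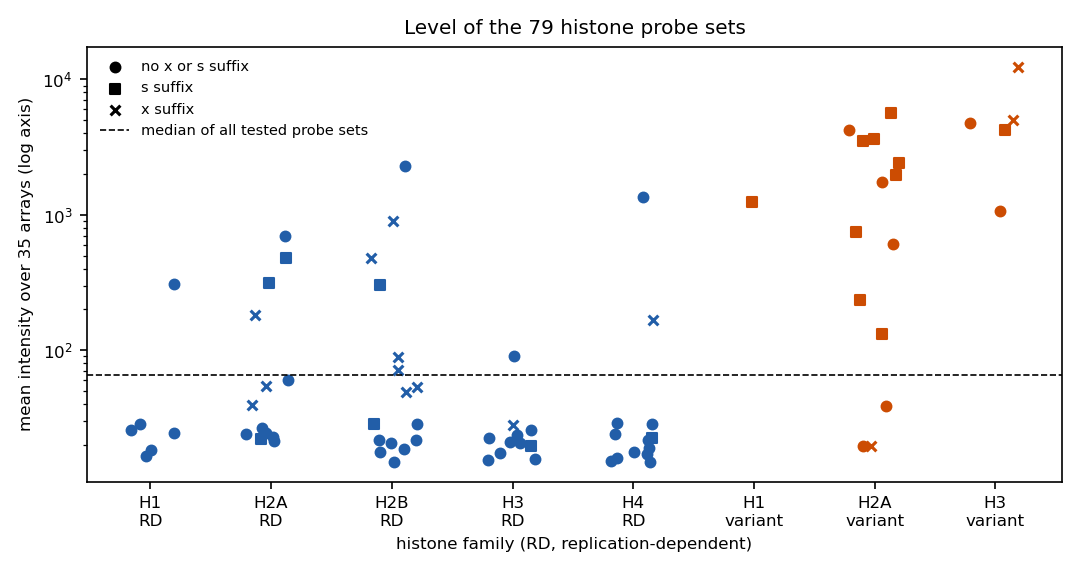
Mean intensity of each of the 79 histone probe sets over 35 arrays (log axis), by histone type, with replication-dependent genes (RD) in blue and variants in orange; the marker shape gives the suffix and the dashed line is the median of all tested probe sets, 65.6. Of the replication-dependent probe sets 14 of 59 lie above the line, and of the variant probe sets 17 of 20 do.

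Across the 9 comparisons of a treatment with DMSO of the same time, 35 of the 79 members passed an adjusted p of 0.05 at least once and 44 never did; of all probe sets 47.9% did. All tests are limma fits over all 19359 probe sets with Benjamini-Hochberg adjustment, and changes are log2 differences of intensity plus 1 with standard errors. At least once, 27 members were lower and 9 were higher, against 26.4% and 25.7% of all probe sets, and H2AC6 was in both counts. The called members were 8 of 16 replication-dependent H2B probe sets (0 higher, 8 lower), 8 of 13 H2A (3 higher, 6 lower), 5 of 11 H3 (2 higher, 3 lower), 3 of 13 H4 (2 higher, 1 lower) and 1 of 6 H1 (1 higher). Among variants they were 6 of 14 H2A-type (1 higher, 5 lower) and 4 of 5 H3-type probe sets (0 higher, 4 lower), these 4 all of H3-3B. By suffix, the called replication-dependent probe sets were 10 of the 11 with x, 5 of the 7 with s and 10 of the 41 with neither.

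**Figure D2:**
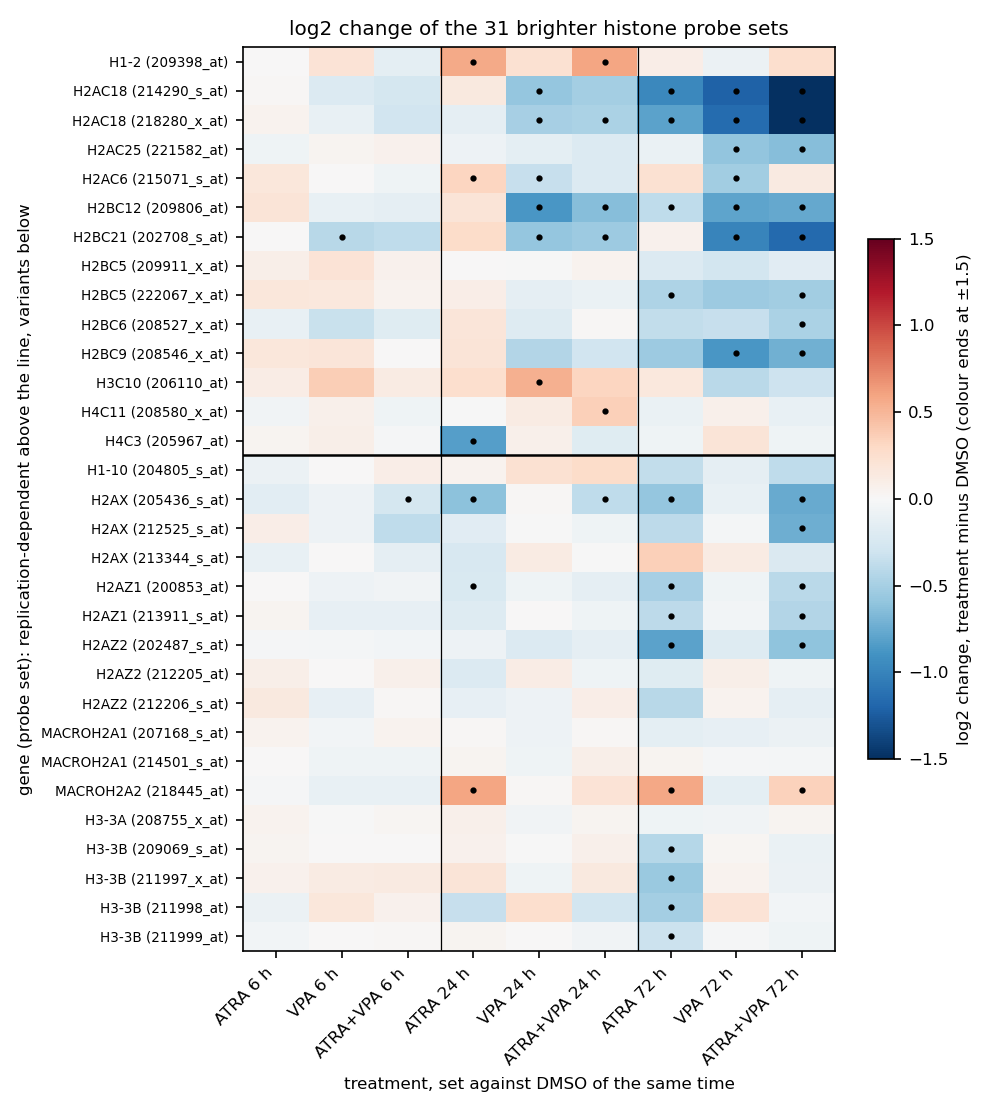
Change of the 31 brighter histone probe sets (rows, replication-dependent above the line and variants below) in the 9 comparisons with DMSO of the same time (columns, by time); colour is the log2 change, treatment minus DMSO, and a dot marks an adjusted p under 0.05. H2AC18 218280_x_at, H2BC12 and H2BC21 are lower under VPA and ATRA plus VPA at 24 h and 72 h. The other H2AC18 row, 214290_s_at, has no dot under ATRA plus VPA at 24 h. The called variants are in ATRA and ATRA plus VPA columns.

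At 6 h almost no histone gene differed from DMSO. ATRA changed 0 of 79 members, against 0.734% of all probe sets higher and 0.336% lower. Under an unadjusted p of 0.05 in the limma fit there were 6 members, against 1331 of all 19359 probe sets. VPA lowered 1 member, H2BC21, and raised 0, against 4.79% of all probe sets higher and 4.13% lower. ATRA plus VPA also lowered 1 and raised 0, against 5.02% higher and 3.98% lower. That member was H2AX, at -0.26 ± 0.06 (adjusted p = 0.0088, limma), a call that is lost without DMSO 6 h replicate 2 (adjusted p = 0.074) or ATRA plus VPA 6 h replicate 3 (adjusted p = 0.056). The H2BC21 change under VPA was -0.42 ± 0.13 (adjusted p = 0.034, limma) and lost its call without any one of the arrays compared except DMSO 6 h replicate 2, for example without DMSO 6 h replicate 3 (-0.30, adjusted p = 0.22).

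Against DMSO of the same time, VPA lowered a group of replication-dependent H2A and H2B genes from 24 h on. At 24 h, 5 of the 79 members were lower and 2 higher, against 1.97% and 7.14% of all probe sets, and the 7 became 4 without VPA 24 h replicate 1 or replicate 2. At 72 h, 9 were lower and 0 higher, against 1.43% and 3.43%. All 9 were replication-dependent, 4 for H2A and 5 for H2B, with changes from -0.52 to -1.21, and no variant was called at 6 h, 24 h or 72 h. Only 2 of the 9, H2BC12 and H2AC25 (the second named here after its values were seen), are read by probe sets without the suffix x or s, so the count is 2 without those suffixes, and H2AC18 gives 2 of the 9. The variants gave 0 unadjusted p-values under 0.05 at each of these times in the same limma fit. With both agents at 72 h, 20 members were lower and 1 higher, against 14.3% and 12.1%. At 24 h the combination lowered 4 members and raised 3, against 5.88% and 10.7%. At 72 h the 20 were 15 replication-dependent probe sets (5 for H2A, 8 for H2B, 2 for H3) and 5 variant probe sets. Without DMSO 72 h replicate 2, which leaves that group 1 array, the 21 calls became 12.

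H2AC18 encodes a canonical H2A in the chromosome 1 cluster (GRCh38 chromosome 1, 149842218 to 149842750), beside a near-identical copy, H2AC19, whose mRNA its probes could also read. At 72 h its probe set 218280_x_at gave 149.7, 136 and 155 with VPA, 85.8, 75.4 and 85.6 with ATRA plus VPA and 190.4, 166 and 210.5 with ATRA, against 319 and 337 with DMSO. The groups did not overlap, and the combination lay lowest. The changes were -1.16 ± 0.11 for VPA (2.23-fold lower, adjusted p = 1.2e-08), -1.98 ± 0.11 for the combination (3.96-fold lower, adjusted p = 9.5e-15) and -0.80 ± 0.11 for ATRA (1.74-fold lower, adjusted p = 1.4e-06, limma). At 24 h the VPA arrays read 148, 132 and 132, against 188, 177 and 222 with DMSO, a change of -0.50 ± 0.10 (adjusted p = 0.00071, limma). A second probe set, 214290_s_at, averaged 342 ± 7.9 with VPA (SD, n = 3), 191 ± 34.5 with ATRA plus VPA (n = 3) and 405 ± 29.8 with ATRA (n = 3), against 801 ± 141 with DMSO (n = 2) at 72 h. Its changes were -1.21, -2.07 and -0.97. The remaining one, 218279_s_at, averaged 22.1 over all arrays, near the floor. It read 30.6 ± 5.3 with ATRA (n = 3) and 21.3 ± 2.5 with DMSO (n = 2) at 72 h. That is a change of +0.50 in the opposite direction, lost without ATRA 72 h replicate 1 (adjusted p = 0.11) or DMSO 72 h replicate 1 (adjusted p = 0.2).

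H2BC21 encodes a canonical H2B, also in the chromosome 1 cluster (149884459 to 149886682). At 72 h it gave 290.0, 219 and 286 with VPA, 203, 265 and 231 with ATRA plus VPA and 495, 549.7 and 613 with ATRA, against 525 and 523 with DMSO. Both groups that held VPA lay below all DMSO arrays, while the ATRA arrays lay on both sides of them. The changes were -0.99 ± 0.14 for VPA (1.99-fold lower, adjusted p = 2.2e-05) and -1.17 ± 0.14 for the combination (2.26-fold lower, adjusted p = 1.4e-07), and ATRA alone gave 0.07 ± 0.14 (adjusted p = 0.77, limma). At 24 h the VPA arrays read 168, 239 and 229 and the combination 202, 232 and 208, against 304, 315 and 323 with DMSO. Those changes were -0.58 (adjusted p = 0.0028) and -0.55 (adjusted p = 0.0022, limma).

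H2BC12, a canonical H2B gene of the chromosome 6 cluster, was lower in every array that received VPA than in any DMSO array at 24 h and at 72 h. At 24 h it read 1187, 1162 and 1465 with VPA and 1257, 1554 and 1677 with ATRA plus VPA, against 2285, 2157 and 2493 with DMSO. All 6 arrays with VPA lay below all 3 DMSO arrays. The changes were -0.87 ± 0.10 for VPA (1.82-fold lower, adjusted p = 5.1e-07) and -0.64 ± 0.10 for the combination (1.55-fold lower, adjusted p = 2.1e-05, limma). At 72 h the values were 1849, 1749 and 1871 with VPA, 1714, 1855 and 1986 with ATRA plus VPA and 2477, 2196 and 2586 with ATRA, against 3209 and 3097 with DMSO. Changes at 72 h were -0.79 for VPA (adjusted p = 1.7e-05) and -0.77 for the combination (adjusted p = 2.8e-06, limma). The ATRA change of -0.38 (adjusted p = 0.0096, limma) lost its call without DMSO 72 h replicate 1 (adjusted p = 0.083) or ATRA 72 h replicate 2 (adjusted p = 0.054) and after a second quantile normalization (-0.25, adjusted p = 0.087).

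H2AC6, a canonical H2A gene of the chromosome 6 cluster, was lower with VPA than with DMSO at 72 h. Its change under the combination did not pass. At 6 h its VPA arrays read 213, 207 and 186, below its VPA arrays at 72 h. At 72 h it gave 296, 383 and 349.6 with VPA and 530.3, 561 and 525 with ATRA plus VPA, against 521 and 459 with DMSO. The VPA change was -0.52 ± 0.12 (adjusted p = 0.0063, limma), lost without DMSO 72 h replicate 1 (adjusted p = 0.19) or VPA 72 h replicate 1 (adjusted p = 0.057), and the combination gave 0.14 ± 0.12 (adjusted p = 0.47). The interaction, which is the combination's change minus both single-agent changes, was 0.43 ± 0.16 at 72 h (adjusted p = 0.18, limma). A difference between the VPA effect with and without ATRA was therefore not shown. At 24 h H2AC6 was lower with ATRA plus VPA than with ATRA, at -0.52 (adjusted p = 0.0016, limma), a call kept under each alternative. Against DMSO at 24 h it was at 0.32 with ATRA and -0.34 with VPA (adjusted p = 0.039 and 0.042, limma). Both of those calls were lost under several alternatives. H2BC9 and H2BC7 were also called under VPA at 72 h, at -0.87 ± 0.22 (adjusted p = 0.014) and -0.60 ± 0.16 (adjusted p = 0.026, limma). Both probe sets carry the suffix x, and that of H2BC7 was dim, with a mean of 49.4 and a change of -0.38 with a pseudocount of 32. Both calls were lost in several leave-one-out fits, most without DMSO 72 h replicate 2 (adjusted p = 0.38 and 0.37).

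A few replication-dependent genes were higher after 24 h of treatment. H1-2, a linker histone gene, gave 277, 277 and 327 with ATRA and 271, 339 and 282 with ATRA plus VPA, against 156, 218 and 223 with DMSO. The changes were 0.57 ± 0.14 (1.49-fold, adjusted p = 0.0034) and 0.59 ± 0.14 (1.5-fold, adjusted p = 0.0024, limma). Without DMSO 24 h replicate 1, the lowest of these arrays, the ATRA change was 0.41 (adjusted p = 0.053). H3C10, a canonical H3 gene, gave 107, 117 and 94.3 with VPA, against 58.5, 75.9 and 87.1 with DMSO, a change of 0.53 ± 0.12 (adjusted p = 0.0058, limma) that became 0.37 (adjusted p = 0.059) without the same DMSO array. H2AC11, a canonical H2A gene whose mean lay below the median level, was higher under VPA by 0.42 ± 0.11 (adjusted p = 0.011) and under the combination by 0.51 ± 0.11 (adjusted p = 0.00098, limma). The H3C10 call and the H2AC11 call under VPA were also lost with only the 24 h arrays in the fit (adjusted p = 0.077 and 0.078, limma). The H2AC11 call under VPA was lost after a second quantile normalization (0.29, adjusted p = 0.11), and without VPA 24 h replicate 1 (adjusted p = 0.054) or replicate 2 (adjusted p = 0.099). None of the 3 genes passed against DMSO at 72 h.

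**Figure D3:**
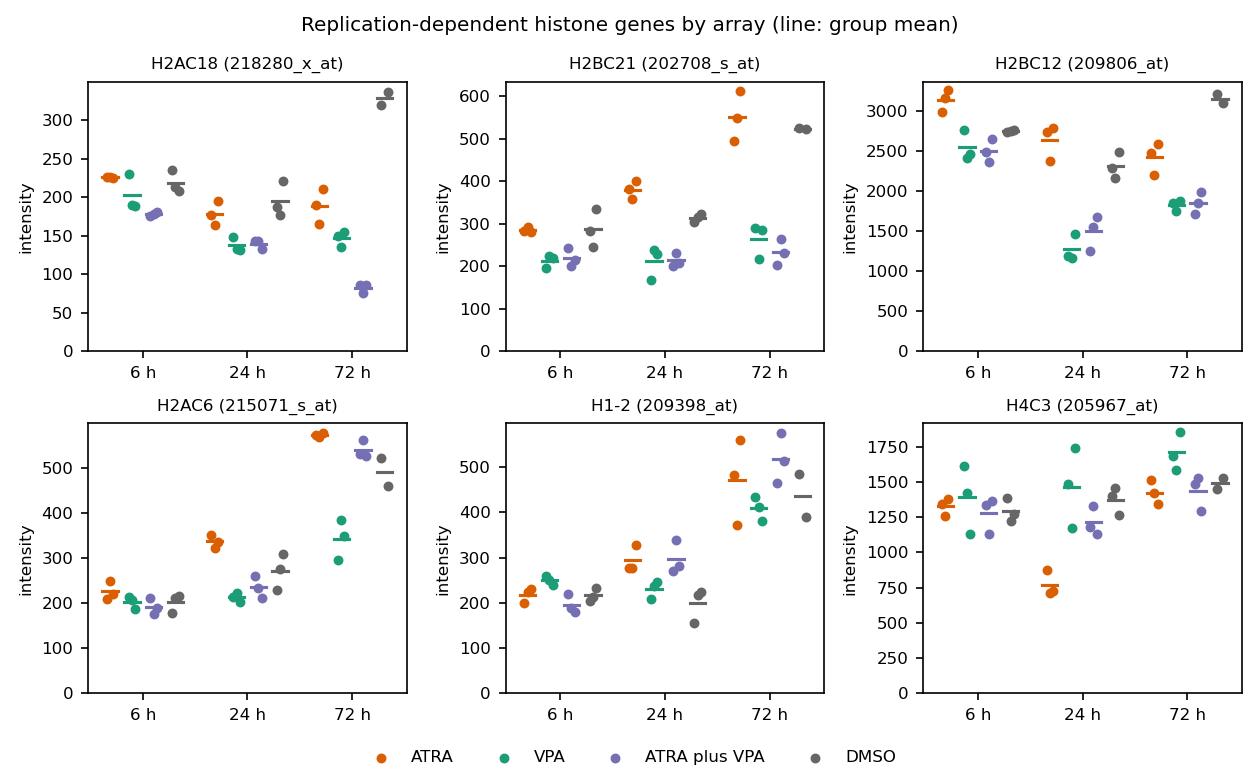
Intensity (linear axis from 0) of 6 replication-dependent histone genes in each of the 35 arrays at 6 h, 24 h and 72 h; points are arrays and lines are group means. With VPA or ATRA plus VPA, H2BC21 stays between 168 and 290.0 at every time, while its DMSO arrays read 525 and 523 at 72 h, and H4C3 is low in the 3 ATRA arrays at 24 h.

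Few replication-dependent probe sets were called with ATRA alone at 24 h, and at 72 h their share did not exceed that of all. At 24 h, 4 members were higher and 4 lower, against 10.4% and 4.49% of all probe sets, and the 8 became 5 without DMSO 24 h replicate 1 and 4 without ATRA 24 h replicate 1. The largest was H4C3, a canonical H4 gene, which gave 877, 715 and 726 with ATRA, against 1402, 1460.4 and 1264 with DMSO. Its change was -0.83 ± 0.12 (1.78-fold lower, adjusted p = 1.2e-05, limma), and the ATRA arrays lay below all DMSO arrays. With ATRA plus VPA at 24 h it gave 1184, 1327 and 1133, and the change from DMSO did not pass. At 72 h, H4C3 read 1513, 1419 and 1343 with ATRA, against 1453 and 1529 with DMSO, which did not pass either (adjusted p = 0.78, limma). At 72 h ATRA lowered 7 of the 59 replication-dependent probe sets and raised 2, smaller shares than the 17.9% and 8.72% of all probe sets. Over all 79 members 15 were lower and 3 higher, so the share of lower ones was near that of all probe sets. The 2 that rose, H2AC18 218279_s_at and H4C8, were both dim: H4C8 averaged 37.0 ± 3.7 with ATRA (n = 3), against 24.6 ± 1.7 with DMSO (n = 2). With a pseudocount of 32 the changes of these dim probe sets were 0.23 and 0.28, in place of 0.50 and 0.57.

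The histone genes also differed between DMSO arrays of different times. The log2 ratio of 3′ to 5′ signal of 2 control genes, GAPDH and ACTB, differed between these arrays too, at 1.06 ± 0.17 at 72 h (n = 2) and 1.05 ± 0.26 at 24 h, against 0.27 ± 0.09 at 6 h (SD, n = 3 each), and its part in the time comparisons was not tested. In DMSO at 72 h against 6 h, 11 members were higher and 5 lower, against 4.74% and 7.56% of all probe sets. Without DMSO 72 h replicate 1 the 16 became 8. Of the replication-dependent probe sets 10 were higher and 0 lower. H2AC6 gave 521 and 459 at 72 h, against 179, 211 and 216 at 6 h, a change of 1.28 ± 0.12 (2.43-fold, adjusted p = 1.9e-08, limma). H3C10 gave 151 and 123 at 72 h, against 51.3, 53.6 and 59.5 at 6 h, a change of 1.30 ± 0.14 (2.46-fold, adjusted p = 2.8e-07, limma). H1-2 rose by 1.00 ± 0.15 (2-fold), H2AC11 by 0.89 ± 0.12 (0.57 with a pseudocount of 32), H2BC21 by 0.87 ± 0.14 and H2AC18 218280_x_at by 0.58 ± 0.11. The other 4, H2AC15, H2AC25, H2AC8 and H2BC5, chosen here after their values were seen, rose by 0.41 to 0.78. Of these, H2AC15 and H2AC8 were dim, with means of 24.4 and 26.6 over all arrays, and are not shown to be above background. The comparisons of treatments with DMSO at 72 h and of DMSO at 72 h with DMSO at 6 h share the same 2 arrays. Set against its own 6 h level, H2BC21 under VPA averaged 265 ± 40.1 at 72 h and 214 ± 14.6 at 6 h (SD, n = 3 each). Under DMSO it averaged 524 ± 2.1 at 72 h (n = 2) and 288 ± 45 at 6 h (n = 3).

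In DMSO at 24 h against 6 h, 5 members were higher and 11 lower, against 4.46% and 13.3% of all probe sets. The variants gave 7 lower and 0 higher, and the replication-dependent probe sets 4 lower and 5 higher. Several of these calls rested on DMSO 24 h replicate 1: without it the count was 8 of 79, and without DMSO 6 h replicate 1 it was 10. H2AC18 214290_s_at was at -0.81 ± 0.19 (adjusted p = 0.0038, limma) with that array and -0.54 (adjusted p = 0.064) without it. H1-10, the variant linker histone, was at -0.57 ± 0.13 (adjusted p = 0.0038, limma) with it and -0.42 (adjusted p = 0.058) without it. The 31 brighter histone probe sets of that array lay below their group means, with a mean residual of -0.16.

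Variant probe sets were called with ATRA and with the combination, and none with VPA alone. At 72 h ATRA lowered 8 of the 20 variant probe sets and raised 1, against 17.9% and 8.72% of all probe sets, with a median change of -0.35. The combination lowered 5 and raised 1, against 14.3% and 12.1%, so its count of 6 of 20 was near that of all probe sets. H2AX, the H2A variant that is phosphorylated at DNA breaks, fell early and stayed low. At 24 h its brightest probe set, 205436_s_at, gave 2644, 2551 and 2732 with ATRA and 3176, 3157 and 2936 with ATRA plus VPA, against 3889, 4021 and 4172 with DMSO. VPA alone gave 4076, 3992 and 4158, and these arrays overlapped the DMSO arrays. The changes were -0.61 ± 0.06 for ATRA (1.52-fold lower, adjusted p = 3.8e-08) and -0.38 ± 0.06 for the combination (adjusted p = 6.9e-05, limma). At 72 h it gave 2678, 2612 and 2446 with ATRA, 3684, 3559.5 and 3472 with VPA and 2229, 2247 and 2316 with ATRA plus VPA, against 3943 and 3745 with DMSO. ATRA gave -0.58 ± 0.07 (adjusted p = 5.6e-07) and the combination -0.76 ± 0.07 (1.7-fold lower, adjusted p = 1.8e-09, limma). The fainter H2AX probe sets did not all follow. At 72 h with ATRA, 212525_s_at gave -0.39 ± 0.17 (adjusted p = 0.085) and 213344_s_at gave 0.36 ± 0.15 (adjusted p = 0.078, limma). In DMSO, 72 h against 6 h, these 2 were called in opposite directions, at -0.50 (adjusted p = 0.046) and 0.48 (adjusted p = 0.037, limma), and both calls were lost in leave-one-out fits.

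The H2A.Z genes, whose protein marks nucleosomes at promoters, were lower after 72 h of ATRA. H2AZ1 213911_s_at gave 4514, 3944 and 4822 with ATRA and 4217, 4074 and 4530.0 with ATRA plus VPA, against 5873 and 5726 with DMSO. The changes were -0.39 ± 0.08 (adjusted p = 0.00034) and -0.44 ± 0.08 (adjusted p = 6.5e-05, limma). Its second probe set, 200853_at, gave -0.50 ± 0.08 and -0.40 ± 0.08. H2AZ2 202487_s_at gave 1260.1, 1419 and 1609 with ATRA and 1511, 1690.1 and 1694 with ATRA plus VPA, against 2621 and 2331 with DMSO. The changes were -0.80 ± 0.12 (1.74-fold lower, adjusted p = 6.1e-06) and -0.60 ± 0.12 (adjusted p = 0.00019, limma). The other H2AZ2 probe sets did not pass with ATRA, at -0.42 ± 0.16 for 212206_s_at (adjusted p = 0.057) and -0.18 ± 0.09 for 212205_at (adjusted p = 0.15, limma).

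H3.3, the replacement H3 variant, is encoded by H3-3A and H3-3B. All 4 H3-3B probe sets were lower after 72 h of ATRA, and the H3-3A probe set was not called against DMSO at any time. H3-3B 211997_x_at gave 2647, 3205 and 2919 with ATRA, 4286, 4306 and 4780.2 with VPA and 3878, 4071 and 4238 with ATRA plus VPA, against 4020.3 and 4618 with DMSO. The 3 ATRA arrays lay below both DMSO arrays, and the other groups overlapped DMSO. The ATRA changes of the 4 probe sets were -0.56, -0.51, -0.43 and -0.32, with standard errors from 0.08 to 0.14. The adjusted p-values ran from 0.00036 to 0.0066 (limma). For 211997_x_at the call was lost without DMSO 72 h replicate 2 (-0.46, adjusted p = 0.052), and for 211998_at without DMSO 72 h replicate 1 (-0.49, adjusted p = 0.058) or ATRA 72 h replicate 1 (-0.36, adjusted p = 0.06) and after the second quantile normalization (-0.34, adjusted p = 0.066). H3-3A gave 11397, 12571 and 12258 with ATRA, against 12654 and 12431 with DMSO, a change of -0.06 ± 0.08 (adjusted p = 0.67, limma). Probe sets that named both H3-3A and its pseudogene were left out.

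MACROH2A2, a macroH2A that carries a large extra domain and is linked to silent chromatin, was the variant that rose. At 24 h it gave 831, 901 and 786 with ATRA, against 509.9, 584 and 581 with DMSO. That is 0.59 ± 0.09 (1.5-fold, adjusted p = 2.9e-05, limma). At 72 h it gave 746, 899 and 819 with ATRA, 495, 471 and 521 with VPA and 749.5, 696 and 653 with ATRA plus VPA, against 538 and 561 with DMSO. The ATRA change was 0.58 ± 0.10 (1.49-fold, adjusted p = 9.5e-05) and the combination's 0.35 ± 0.10 (adjusted p = 0.012, limma). The second was lost without DMSO 72 h replicate 1 (adjusted p = 0.11) or ATRA plus VPA 72 h replicate 1 (adjusted p = 0.059). Its relative MACROH2A1 was not called against DMSO at any time, with changes at 72 h of -0.15 ± 0.08 for ATRA and -0.09 ± 0.08 for the combination in 207168_s_at. H1-10 was not called either, at -0.37 ± 0.15 with ATRA (adjusted p = 0.06) and -0.38 ± 0.15 with the combination (adjusted p = 0.054, limma) at 72 h.

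**Figure D4:**
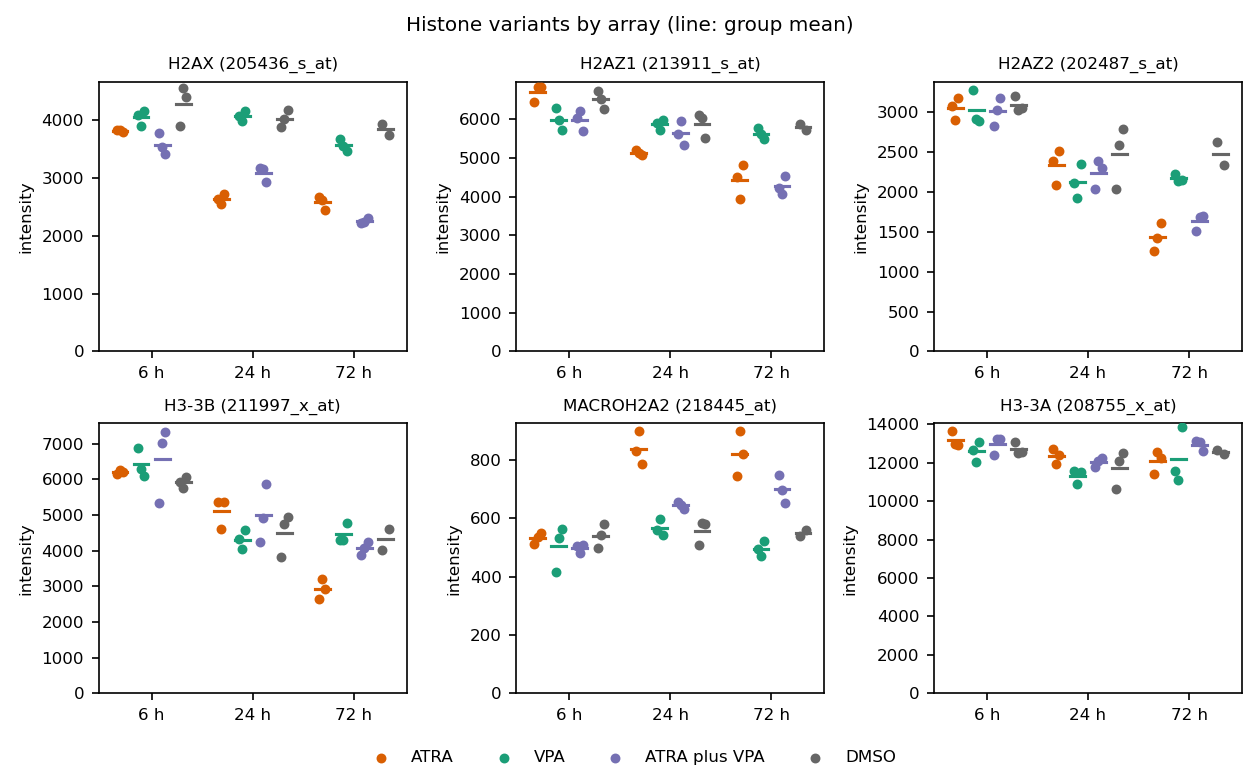
Intensity (linear axis from 0) of 6 histone variant probe sets in each of the 35 arrays at 6 h, 24 h and 72 h; points are arrays and lines are group means. At 72 h H2AX, H2AZ1 and H2AZ2 are lower with ATRA and ATRA plus VPA than with DMSO. H3-3B is lower with ATRA, MACROH2A2 is higher with ATRA, and for H3-3A each treatment overlaps DMSO.

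Each treatment's change against DMSO at 72 h was also compared with its change at 6 h. For ATRA 11 members had a lower value at 72 h and 2 a higher one, against 9.99% and 4.33% of all probe sets, and for ATRA plus VPA 9 and 1, against 6.92% and 6.26%. For VPA 5 were lower and 0 higher, against 0.522% and 0.997%, and the 5 became 2 without either DMSO 72 h array and 3 without DMSO 6 h replicate 2. The VPA effect on H2AC18 218280_x_at differed by -1.04 (72 h minus 6 h, log2).

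RNA quality measures and other markers moved with some of these groups. The same log2 ratio of 3′ to 5′ signal of GAPDH and ACTB, read from the array's control probe sets, averaged 1.82 ± 0.17 with ATRA (n = 3), 1.09 ± 0.16 with VPA (n = 3) and 1.36 ± 0.07 with ATRA plus VPA (n = 3), against 1.06 ± 0.17 with DMSO (n = 2) at 72 h. At 24 h the means were 0.89, 1.60 and 0.97, against 1.05 with DMSO, and at 6 h 0.20, 0.44 and 0.39, against 0.27 with DMSO. The treatment effects at 72 h minus those at 6 h span the same difference between times. Among markers of other cell types, 5 of 5 mesenchymal genes were measured. At 24 h 2 were higher with ATRA, 3 with VPA and 4 with both, against 10.4%, 7.14% and 10.7% of all probe sets, and at 72 h 1, 2 and 3, against 8.72%, 3.43% and 12.1%. Their summed intensity at 72 h was 366 to 396 with ATRA, 513 to 582 with VPA and 539 to 623 with both, against 338 to 378 with DMSO. The summed intensity of the 4 epithelial genes at 72 h was 248 to 315 with ATRA, 102 to 115 with VPA and 200.5 to 254 with both, against 132 to 158 with DMSO. KRT19, the epithelial keratin above the median level, was at 2.49 with ATRA and 1.77 with both at 24 h (adjusted p = 2.2e-10 and 1.6e-07, limma), while CDH1 averaged 21.2, near the floor. The blood genes stayed dim, although CD14, with a mean of 26.1, was at 0.83 with both at 72 h (adjusted p = 5.2e-05, limma). The part of the ratio and of these markers in the histone changes was not tested.

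The combination was also set against ATRA alone, which uses no DMSO array. At 6 h, 3 members were lower and 0 higher, against 4.18% and 5.11% of all probe sets, and 0 were called without ATRA 6 h replicate 2, ATRA plus VPA 6 h replicate 1 or ATRA plus VPA 6 h replicate 2. At 24 h, 6 were lower and 3 higher, against 3.38% and 3.45%, and without ATRA 24 h replicate 1 the 9 became 5. At 72 h, 12 were lower and 4 higher, against 5.25% and 11.7%. The replication-dependent probe sets at 72 h gave 10 lower and 0 higher. H2BC21 gave 203, 265 and 231 with the combination, against 495, 549.7 and 613 with ATRA, a change of -1.24 ± 0.13 (2.37-fold lower, adjusted p = 4e-08, limma). H2AC18 218280_x_at gave 85.8, 75.4 and 85.6, against 190.4, 166 and 210.5 with ATRA, a change of -1.18 ± 0.10 (2.27-fold lower, adjusted p = 5.1e-10, limma). H2BC12 gave -0.82 ± 0.10 at 24 h (adjusted p = 1.4e-06) and -0.38 ± 0.10 at 72 h (adjusted p = 0.0071, limma). The 4 members that were higher at 72 h were the H3-3B probe sets, by 0.25 to 0.48. At 24 h H4C3 was higher with the combination than with ATRA by 0.65 ± 0.12 (adjusted p = 0.00078, limma), and MACROH2A2 gave -0.38 ± 0.09 (adjusted p = 0.0096), a call lost without ATRA 24 h replicate 2 (adjusted p = 0.057).

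Whether the agents together gave more or less than their sum was tested as an interaction at each time, and 0 of 79 members passed at 6 h, 24 h or 72 h in the limma fit. At the same adjusted threshold 0% of all probe sets were called in either direction at 6 h. The shares were 0.0413% higher and 0.413% lower at 24 h, and 0.739% and 0.382% at 72 h. Under an unadjusted p of 0.05 in that fit there were 1, 7 and 13 members. That threshold is looser and no share of all probe sets is given at it. Whether these counts lie above or below that share is therefore not shown. The interaction of H2AC18 218280_x_at at 72 h was -0.03 ± 0.14, and that of H2BC21 was -0.25 ± 0.19 (adjusted p = 0.95 and 0.55, limma). That of H4C3 at 24 h was 0.58 ± 0.18 (adjusted p = 0.19) and that of H3-3B 211997_x_at at 72 h was 0.43 ± 0.17 (adjusted p = 0.22, limma).

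Genes that make, carry and use histones were described from 3 lists, each gene by 1 probe set. S phase genes were measured for all 20 list members. They were lower in 17 of 20 after 72 h of ATRA, 0 of 20 after VPA and 19 of 20 after both, against 17.9%, 1.43% and 14.3% of all probe sets, and 0 were higher in any of the 3. At 1.43%, 0 of 20 under VPA does not stand apart from all probe sets. Their median changes were -0.72, -0.25 and -1.01, beside medians of 0.00 to -0.02 over all probe sets. PCNA, the sliding clamp of DNA polymerase, was at -0.48 (adjusted p = 1.9e-06), -0.10 (adjusted p = 0.53) and -0.66 (adjusted p = 3.7e-09, limma). MCM2, a subunit of the replicative helicase, was at -0.72, -0.29 and -1.04, and the VPA value did not pass (adjusted p = 0.22). At 24 h, 11 of 20 were lower with ATRA, 1 of 20 with VPA and 13 of 20 with both, against 4.49%, 1.97% and 5.88% of all probe sets. At 6 h 0 of 20 were called with ATRA, while VPA and both each gave 4 lower and 1 higher, against 4.13% and 4.79% for VPA and 3.98% and 5.02% for both.

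Of 14 genes for histone mRNA synthesis and 3′ end processing 7 were measured. At 72 h 3 were lower with ATRA, 0 with VPA and 3 with both, against the same shares of all probe sets, 17.9%, 1.43% and 14.3%. SLBP, the stem-loop binding protein that histone mRNAs need in place of poly(A), was at -0.71 with ATRA (adjusted p = 6.8e-06), -0.09 with VPA (adjusted p = 0.79) and -0.83 with both (adjusted p = 3.8e-07, limma). NPAT, the coactivator of the clustered histone genes, was at -0.46 (adjusted p = 0.013), 0.04 (adjusted p = 0.95) and -0.30 (adjusted p = 0.12, limma). Of 22 histone chaperone and exchange genes 21 were measured. At 72 h 14 were lower with ATRA, 1 with VPA and 13 with both, against the same 3 shares, and 1 was higher with both, against 12.1%. CHAF1B, a subunit of the CAF-1 chaperone, was at -0.71 (adjusted p = 1.9e-06), -0.04 (adjusted p = 0.93) and -0.88 (adjusted p = 2.9e-08, limma). CENPA, the centromeric H3 variant, was at -0.70 (adjusted p = 1.1e-06), 0.08 (adjusted p = 0.8) and -0.64 (adjusted p = 2.6e-06, limma). Whether VPA and ATRA differ from each other on these lists was not tested.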

How the data were processed

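Expression was measured in 35 samples of BE(2)-C cells on Affymetrix human whole-genome arrays of an early access design. Each deposited value is the intensity of a probe set on a linear scale. The submitters' processing notes name RMA as what the authors used; the version and the genome build are not given in the sources used here. There are no detection calls or counts, so precision is limited by how few arrays each group has and by dim probes.

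The log2 of intensity plus 1 was analysed. Of 22930 probe sets, 19359 with exactly 1 gene symbol were tested. The 125 that name several genes, including 6 of histone genes, 3292 with none and 154 controls with a symbol were left out. Gene symbols came from GEO's platform annotation, and all 79 members matched RefSeq by gene identifier, with 0 symbols changed. H2AJ, which the rule for named genes also lists, is not analysed here.

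The 12 group means were fitted together over all arrays in R 4.3.3 by limma 3.58.1, through lmFit and eBayes, which left 23 residual degrees of freedom with 5 more from the prior. Adjustment followed Benjamini-Hochberg over the 19359 probe sets within each of 20 contrasts, with a threshold of 0.05. The fit was tested on simulated data. Named probe sets are the brightest of preset genes, the 4 largest changes past the threshold per treatment whose arrays do not overlap DMSO, the 2 largest rises and falls of each other contrast, and genes whose probe sets were called in opposite directions. Other probe sets of those genes are given beside them. The members, gene lists and tests were chosen with earlier results of these data known.

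Replicate numbers were checked for pairing: deviations of same-numbered arrays correlated between -0.40 and 0.45, like those of different numbers, so the numbers were not used as pairs. Alternatives were a replicate block, a pseudocount of 32, leaving out the lowest 33.3% of probe sets, an intensity trend with a robust prior, a second quantile normalization, only the arrays of the times compared, the brightest probe set per gene, members without x and s probe sets, and leaving out each array in turn. Promoter windows came from RefSeq (GRCh38.p14) and were searched on both strands.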

Additional observations from a re-analysis of the deposited data

Results flagged for a closer look

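For the named probe sets, a treatment's change against DMSO at 72 h was compared with its change at 6 h in the same limma fit. The values below are those that passed. These values share the DMSO arrays of both times, in which several replication-dependent genes differed.

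For ATRA, the effect at 72 h minus that at 6 h was -1.01 for H2BC7, -1.0 and -0.85 for H2AC18 (214290_s_at and 218280_x_at), -0.78 for H2AZ2, -0.63 for H3-3B 211997_x_at, -0.57 for H2BC12, -0.44 for H2AZ1 and -0.41 for H2AX. It was 0.59 for MACROH2A2 and 0.62 for H4C8, whose signal lay near the floor. For VPA it was -1.04 for H2AC18 218280_x_at, -0.77 for H3C10 and -0.68 for H2BC12. For ATRA plus VPA it was -1.80 and -1.69 for H2AC18 (214290_s_at and 218280_x_at), -0.79 for H2BC21, -0.63 for H2BC12, -0.56 for H2AZ2, -0.50 for H2AX, -0.32 for H2AZ1 and 0.46 for MACROH2A2. Each passed an adjusted p of 0.05 in limma. Several calls were lost when 1 array was left out. Without DMSO 72 h replicate 1, adjusted p was 0.28 for H3C10 and 0.093 for H2BC12 under VPA, 0.12 for H4C8 under ATRA, and 0.15 for H2AZ1, 0.11 for H2AZ2 and 0.11 for MACROH2A2 under ATRA plus VPA. After the second quantile normalization the ATRA values were -0.23 for H2AX (adjusted p = 0.18), -0.41 for H2BC12 (0.062), -0.47 for H3-3B 211997_x_at (0.06) and 0.55 for H4C8 (0.054), all no longer called, and -0.29 for H2AZ1 (0.048), which stayed called. With a pseudocount of 32 the dim H2BC7 and H4C8 were at -0.65 and 0.30. Without DMSO 72 h replicate 2 adjusted p was 0.13 for H2AC18 214290_s_at and 0.11 for H3-3B 211997_x_at under ATRA.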

How the results depend on the processing

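Of 114 changes called in the 25 named probe sets, 60 were called under each alternative run, 54 lost the call under at least 1 and 0 reversed. Leaving out any single array kept 62. The counts of called members are open to the probe sets chosen. Without x and s probe sets they were, at 6 h, 0 (in place of 1) for VPA, 0 (1) for ATRA plus VPA and 1 (3) for the combination against ATRA. At 24 h they were 3 (7) for VPA, 3 (7) for ATRA plus VPA and 4 (9) against ATRA, and at 72 h 6 (18) for ATRA, 2 (9) for VPA, 6 (21) for ATRA plus VPA and 7 (16) against ATRA. For DMSO they were 3 (16) at 24 h and 7 (16) at 72 h against 6 h, and for the effects at 72 h minus 6 h, 4 (13) for ATRA, 3 (5) for VPA and 4 (10) for both. This alternative leaves fewer probe sets to call. With the brightest probe set per gene, ATRA at 72 h had 11, the combination against ATRA at 72 h 10, DMSO at 72 h against 6 h 10 and ATRA plus VPA at 6 h 2. With only the arrays of the times compared, VPA at 6 h and ATRA plus VPA at 6 h had 3 each, VPA at 24 h 3 and the combination against ATRA at 24 h 5. ATRA plus VPA at 6 h had 2 with the replicate block, 2 with a pseudocount of 32, 2 after the second quantile normalization and 3 without the lowest 33.3% of probe sets, where VPA at 6 h had 2. The block moved no other count by over 1.5 times, nor did the trend with a robust prior.

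Leaving out each array in turn gave 0 to 0 calls for ATRA, 0 to 1 for VPA and 0 to 2 for both at 6 h, 4 to 9, 4 to 8 and 6 to 10 at 24 h, and 13 to 21, 6 to 7 and 12 to 21 at 72 h. For the combination against ATRA it gave 0 to 2, 5 to 8 and 11 to 16 at the 3 times, and for the interactions 0 to 0. For DMSO at 24 h it gave 8 to 18, lowest without DMSO 24 h replicate 1, and at 72 h 8 to 14, lowest without DMSO 72 h replicate 1. The effects at 72 h minus 6 h gave 11 to 15 for ATRA, 2 to 5 for VPA and 7 to 10 for both. The lowest counts for ATRA and for both agents at 72 h came without DMSO 72 h replicate 2, where that group held 1 array assumed to vary like the others. The cause of these differences was not tested.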
